A study of Mus musculus with 7 samples.

Results

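The angiogenic ligands and neuropilins are the secreted vascular growth factors Vegfa, Vegfb, Vegfc, Pgf, Angpt1, Angpt2 and Angpt4 and the co-receptors Nrp1 and Nrp2, taken by gene symbol from an expression table of the mouse uterus. All 9 were found among the 31274 rows of the table, and 8 passed the filter on low values, at least 1 FPKM in at least 3 libraries. FPKM is the number of sequenced fragments of a gene scaled by transcript length and by the size of the library, so levels of different genes can be set side by side. RNA sequencing had been done on uteri of untreated, intact CD-1 mice aged 2 months, an outbred stock with no transgene or engineered allele. There were 4 libraries from diestrus and 3 from estrus, and the comparison asked which genes differ between these phases of the ovarian cycle.

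The vascular endothelial growth factors (VEGFs) act on receptor tyrosine kinases of endothelial cells. Vegfa signals mainly through Kdr and also binds Flt1, Vegfb and Pgf bind Flt1, and Vegfc binds Flt4, through which it drives growth of lymphatic vessels. Neuropilins are transmembrane co-receptors that bind several of these growth factors and also the class 3 semaphorins, a family of guidance proteins. Angiopoietins bind the receptor Tek, also called Tie2: Angpt1, made by cells around vessels, activates it and stabilises vessels, while Angpt2, made largely by endothelium, competes with Angpt1 and loosens them. In the uterus, vessels grow, leak and regress with each cycle under estradiol, which peaks shortly before estrus, and progesterone, which prevails in diestrus.

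Some properties of the libraries bear on the values below. Diestrus replicate 1 lay closest to the estrus group, with a Spearman correlation of 0.919 to its nearest estrus library against 0.846 to 0.874 for the other diestrus libraries, so results are also given without it. No counts come with FPKM, so absolute depth is unknown, and relative depths, read from the steps between low values, were 0.92 to 1.36 times that of estrus replicate 1. The 10 most abundant rows took 12.1% to 34.2% of the FPKM sum in diestrus libraries and 33.7% to 38.2% in estrus libraries. The sums themselves did not overlap, at 471379 to 583079 in diestrus and 677344 to 731457 in estrus. Libraries were not scaled to equal sums in any fit, so fold changes depend on the FPKM scale as given. The log2 fold change of Nrp1 was 0.51 with median-ratio scaling and 0.36 with quantile normalization. That of Vegfa was -0.16 and -0.31. Markers of epithelium, stroma and smooth muscle were all detected, as the label of whole uterus implies, and none of them was at 0 in any library. Whether the libraries come from separate animals is not said in the labels, and p-values therefore measure the spread between these libraries, which may be technical.

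The proximal promoters of Vegfb and Vegfc are shown because both genes were lower at estrus in every fit that tested them, and that of Vegfa because its level overlapped between the phases. The sequences are RefSeq reference sequence of GRCm38.p6, 250 bases that end at the base before an annotated transcription start, written 5′ to 3′ along the gene. Capitals mark GCGTG, a core of the element bound by hypoxia-inducible factors (HIF), and GGGCGG, the GC box, on either strand. ACGTG, the other hypoxia core searched, was in none of the 3.
Vegfb, chr19:6987652-6987901, minus strand: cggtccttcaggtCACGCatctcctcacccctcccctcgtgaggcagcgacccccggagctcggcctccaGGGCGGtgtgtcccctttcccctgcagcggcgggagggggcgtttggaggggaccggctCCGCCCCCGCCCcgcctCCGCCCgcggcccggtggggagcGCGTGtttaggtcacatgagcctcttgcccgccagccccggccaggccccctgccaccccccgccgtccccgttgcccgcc
Vegfc, chr8:54077282-54077531, plus strand: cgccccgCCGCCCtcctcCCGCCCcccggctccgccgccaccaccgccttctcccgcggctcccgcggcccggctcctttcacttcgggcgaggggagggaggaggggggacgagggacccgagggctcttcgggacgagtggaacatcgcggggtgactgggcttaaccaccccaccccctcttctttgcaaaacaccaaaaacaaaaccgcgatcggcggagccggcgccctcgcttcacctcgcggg
Vegfa, chr17:46032378-46032627, minus strand: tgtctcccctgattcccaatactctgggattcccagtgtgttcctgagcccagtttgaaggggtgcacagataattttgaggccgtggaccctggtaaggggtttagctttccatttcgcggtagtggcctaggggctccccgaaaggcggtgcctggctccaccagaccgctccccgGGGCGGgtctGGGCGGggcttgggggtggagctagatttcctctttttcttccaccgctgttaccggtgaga
The Vegfb stretch held 2 GCGTG matches, 237 and 81 bases before the start, and 4 GC boxes. The Vegfc stretch held no hypoxia core and 2 GC boxes, and so did the Vegfa stretch. For comparison, 28.2% of all 32851 promoter stretches of this length held GCGTG, 16.6% held ACGTG and 32.7% held GGGCGG on either strand. The palindromic estrogen response element and the palindromic progesterone or glucocorticoid response element were in none of the 9 windows found for 7 of the 9 genes. These windows were 300 bases long, with 50 bases after the start. Of all promoter stretches of 250 bases, 0.0639% and 0.387% held them. At such low shares, absence from 9 windows says nothing about these genes. A further annotated Vegfa start, inside the gene, had 1 ACGTG and 1 GCGTG in its window. Such a match describes letters only and is not a binding site.

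Among the VEGF ligands, Vegfb and Vegfc were clearly lower at estrus, Pgf was lower by a narrow margin, and Vegfa, the most abundant of the 9 genes on average, overlapped between the phases. Vegfa (GRCm38 chromosome 17, 46016993 to 46032369, protein-coding), the main driver of blood vessel growth and permeability, stood at 40.6, 28.4, 23.5 and 20.2 FPKM in diestrus replicates 1 to 4 and at 23.9, 19.6 and 30.1 FPKM in estrus replicates 1 to 3. The highest library was diestrus replicate 1 and the lowest was estrus replicate 2, with the others interleaved. The means were 28.2 ± 8.97 FPKM (SD, n = 4) and 24.5 ± 5.29 FPKM (SD, n = 3), which differed by -0.17 on the log2 scale (SE 0.25, limma adjusted p = 0.629). Without diestrus replicate 1 the log2 fold change was 0.02 (limma adjusted p = 0.942). Each fold change is the estrus mean less the diestrus mean of log2(FPKM + 1), so that changes of genes with low FPKM are understated, and adjusted p-values are Benjamini-Hochberg values over all 13920 tested genes.

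Vegfb (chromosome 19, 6982473 to 6987651, protein-coding), a ligand of Flt1 best known for its effects on heart and metabolism, stood at 15.8, 30.4, 17.2 and 23.8 FPKM in the diestrus libraries. The estrus libraries lay close together, at 8.49, 8.20 and 8.43 FPKM, and every diestrus library was higher. Vegfb fell from 21.8 ± 6.70 to 8.37 ± 0.15 FPKM, to 38.4% of the diestrus mean (log2 -1.24, SE 0.22, limma adjusted p = 0.00701). Vegfc (chromosome 8, 54077606 to 54187096, protein-coding), the lymphatic growth factor, stood at 4.72, 6.11, 4.64 and 7.46 FPKM in diestrus. Its estrus values of 1.72, 1.71 and 1.49 FPKM all lay below the lowest diestrus library. Vegfc fell from 5.73 ± 1.34 to 1.64 ± 0.13 FPKM, to 28.6% of the diestrus mean (log2 -1.33, SE 0.18, limma adjusted p = 0.00272). Leaving out any 1 library left adjusted p-values of at most 0.0378 for Vegfb and 0.0199 for Vegfc.

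Pgf, placental growth factor (chromosome 12, 85166635 to 85177790, protein-coding), a Flt1 ligand that acts on vessels and on myeloid cells, stood at 2.75, 4.21, 5.88 and 6.62 FPKM in diestrus and at 2.46, 1.87 and 2.43 FPKM in estrus. The groups did not overlap, but diestrus replicate 1 was only slightly above the highest estrus library. Pgf fell from 4.86 ± 1.73 to 2.26 ± 0.33 FPKM (log2 -0.80, SE 0.25, limma adjusted p = 0.0454). Without diestrus replicate 1 its adjusted p was 0.00796. Without diestrus replicates 2, 3 or 4 it was 0.0716, 0.0997 or 0.1, and without estrus replicates 1, 2 or 3 it was 0.0927, 0.158 or 0.0808. Because the whole uterus was sequenced, fewer cells of a type and less RNA per cell cannot be told apart for this or any other gene here.

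**Figure D1:**
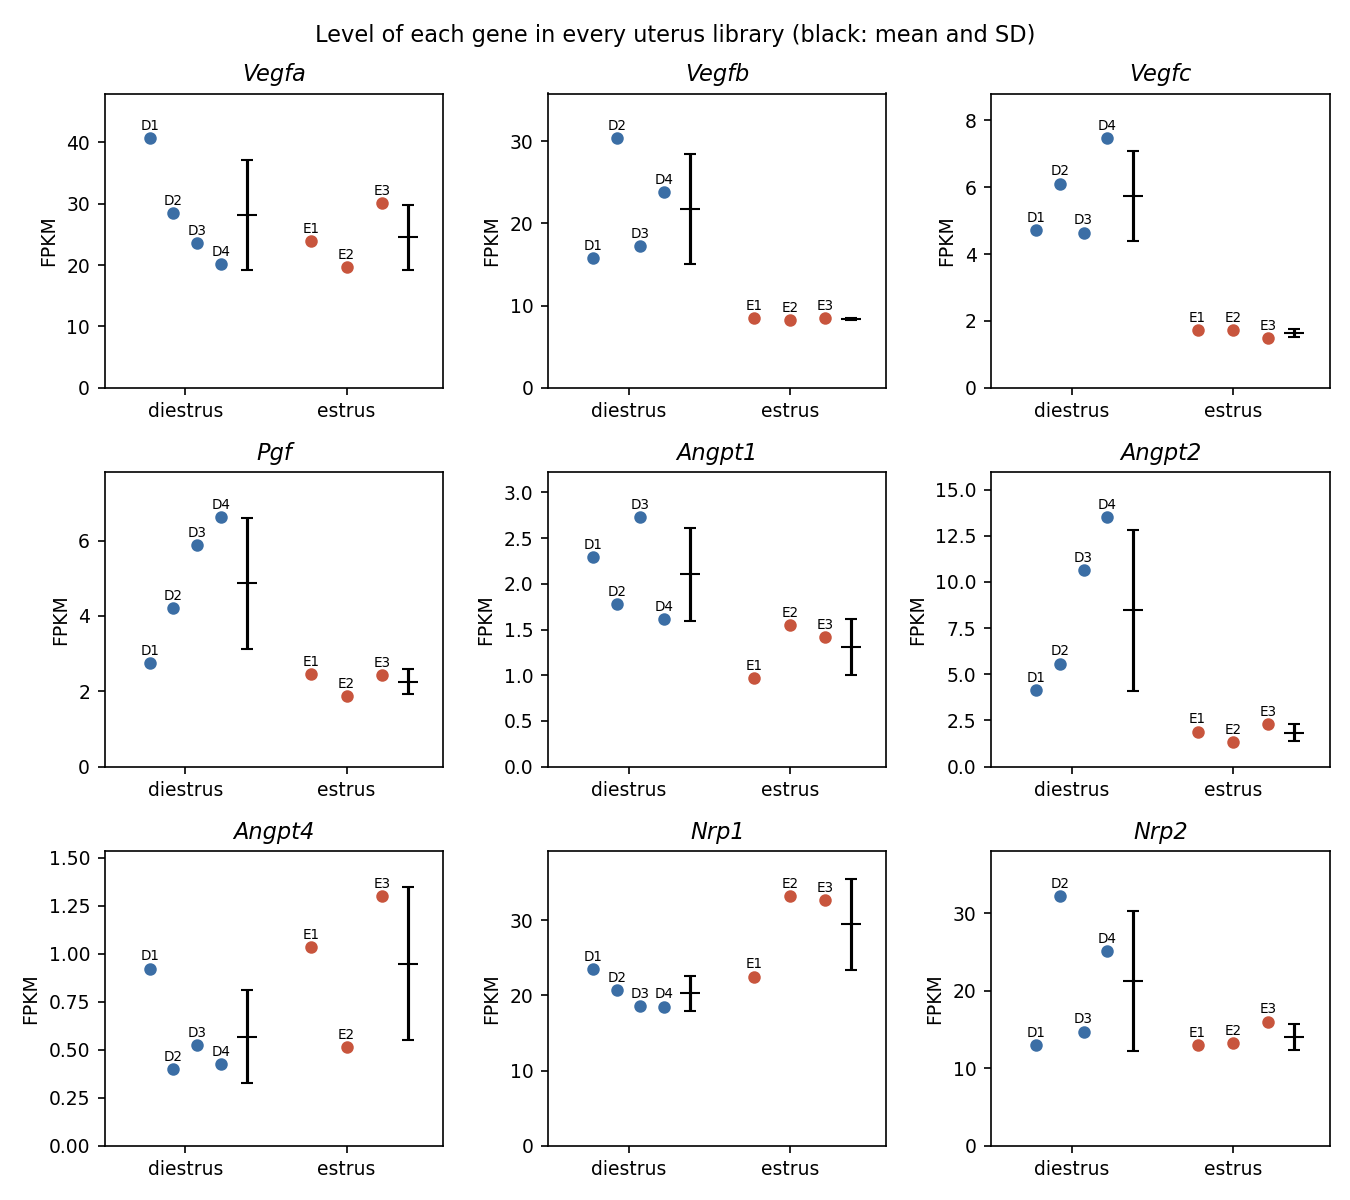
FPKM (linear axis from 0, a separate scale for each gene) of the 9 genes in each of the 4 diestrus (blue, D1 to D4) and 3 estrus (red, E1 to E3) libraries, with the group mean and SD in black. Vegfb, Vegfc, Pgf, Angpt1 and Angpt2 had every estrus library below every diestrus library, while Vegfa, Angpt4, Nrp1 and Nrp2 overlapped.

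Among the angiopoietins, Angpt2 fell, Angpt1 did not pass the test and Angpt4 was too low to enter the fit. Angpt2 (chromosome 8, 18690263 to 18741562, protein-coding), the context-dependent Tek antagonist, had the largest change of the 8 fitted genes at a pseudocount of 1, although Vegfb exceeded it at a pseudocount of 5 (log2 -0.97 against -0.92). It stood at 4.13, 5.57, 10.6 and 13.5 FPKM in diestrus replicates 1 to 4 and at 1.90, 1.34 and 2.31 FPKM in estrus. No estrus library reached the lowest diestrus library, and the diestrus libraries themselves spread over a 3.27-fold range. Angpt2 fell from 8.46 ± 4.37 to 1.85 ± 0.49 FPKM, or 4.58-fold (log2 -1.62, SE 0.36, limma adjusted p = 0.0155). The adjusted p was 0.0723 without estrus replicate 2 and 0.00586 without diestrus replicate 1.

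Angpt1 (chromosome 15, 42424723 to 42676977, protein-coding), the Tek agonist, was low, at 2.29, 1.78, 2.73 and 1.62 FPKM in diestrus and 0.97, 1.55 and 1.42 FPKM in estrus. All estrus libraries lay below all diestrus libraries, though the gap between diestrus replicate 4 and estrus replicate 2 was narrow. The means of 2.10 ± 0.51 and 1.31 ± 0.30 FPKM did not differ at the threshold (log2 -0.42, SE 0.18, limma adjusted p = 0.104). The annotated antisense gene Gm17473 overlaps an Angpt1 exon, and whether counting used strand is not stated in the labels or the file. Angpt4 (chromosome 2, 151911210 to 151945337, protein-coding), another Tek ligand, was near the lower limit of the table, at 0.92, 0.40, 0.52 and 0.42 FPKM in diestrus and 1.03, 0.51 and 1.30 FPKM in estrus. It did not pass the expression filter, its groups overlapped, and an exact two-sided permutation over the 35 ways to divide the libraries gave p = 0.200 on its log2(FPKM + 1) values.

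The ratio of Angpt2 to Angpt1 in FPKM was 1.80, 3.13, 3.90 and 8.35 in the 4 diestrus libraries and 1.96, 0.87 and 1.63 in the 3 estrus libraries, in the order of their replicate numbers. Angpt2 was the more abundant of the pair in every library but estrus replicate 2, and diestrus replicate 1 lay among the estrus libraries on this raw ratio. With 1 FPKM added to each gene, the log2 ratio averaged 1.5 ± 0.77 (SD, n = 4) in diestrus and 0.30 ± 0.37 (SD, n = 3) in estrus. The difference of -1.20 had p = 0.0571 by an exact two-sided permutation and 0.0857 adjusted over the 2 ratios tested, where 0.0286 is the smallest unadjusted p that the design allows. On this log2 scale diestrus replicate 1, at 0.64, lay above all 3 estrus libraries (0.56, -0.12 and 0.45), so the groups did not overlap. The difference was -1.37 with a pseudocount of 0.1 and -0.75 with a pseudocount of 5.

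The neuropilins had fold changes of opposite sign, and neither passed the test. Nrp1 (chromosome 8, 128358604 to 128503363, protein-coding), the co-receptor for Vegfa and Sema3a, stood at 23.5, 20.7, 18.5 and 18.5 FPKM in diestrus and at 22.5, 33.2 and 32.7 FPKM in estrus. An annotated microRNA, Mir1903, lies within its exons. Estrus replicates 2 and 3 were above every diestrus library, while estrus replicate 1 lay below diestrus replicate 1. The means were 20.3 ± 2.34 and 29.5 ± 6.04 FPKM (log2 0.50, SE 0.17, limma adjusted p = 0.0542). The adjusted p was 0.0391 without diestrus replicate 1 and 0.0223 without estrus replicate 1, and 0.0905 to 0.199 without any other library.

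Nrp2 (chromosome 1, 62703285 to 62818695, protein-coding), the co-receptor for Vegfc and Sema3f that marks lymphatic and venous endothelium, stood at 13.0, 32.2, 14.7 and 25.1 FPKM in diestrus and at 13.0, 13.2 and 16.0 FPKM in estrus. Diestrus replicates 2 and 4 were high and the other 5 libraries were alike. The means of 21.2 ± 9.04 and 14.1 ± 1.70 FPKM did not differ at the threshold (log2 -0.48, SE 0.30, limma adjusted p = 0.254). The ratio of Nrp1 to Nrp2 in FPKM was 1.81, 0.64, 1.26 and 0.74 in diestrus and 1.74, 2.52 and 2.04 in estrus. Nrp1 thus exceeded Nrp2 in all 3 estrus libraries and in 2 of 4 diestrus libraries. The log2 ratio averaged 0.02 ± 0.66 in diestrus and 1.00 ± 0.26 in estrus, and the difference of 0.98 had an exact permutation p of 0.0857 (0.0857 adjusted over the 2 ratios).

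**Figure D2:**
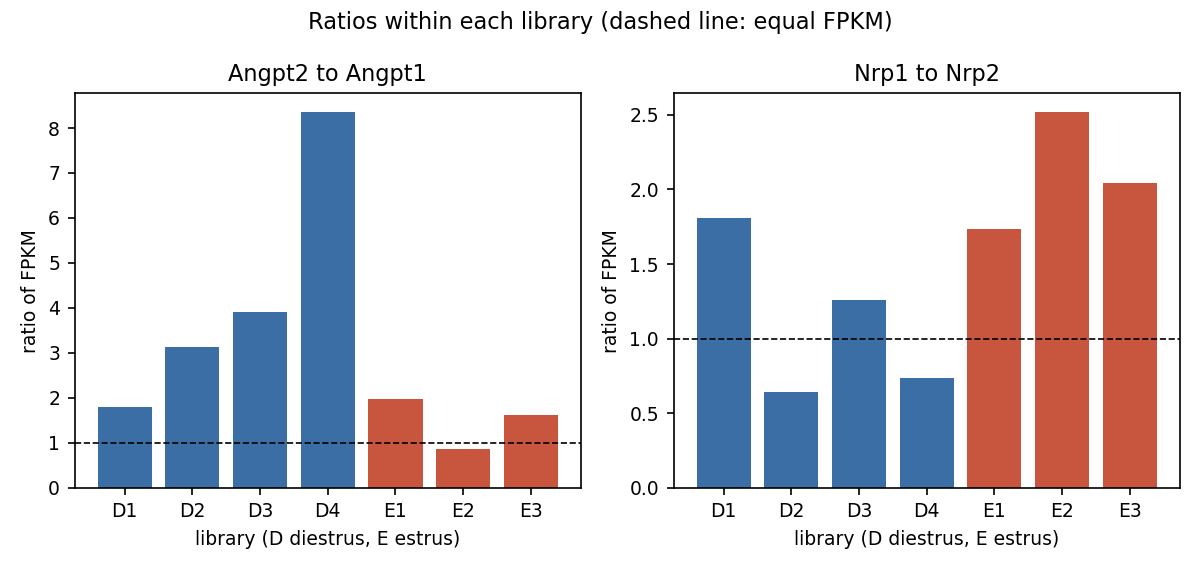
Ratio of FPKM within each library (linear axis from 0, dashed line at equal FPKM) for Angpt2 to Angpt1 and for Nrp1 to Nrp2, in diestrus (D, blue) and estrus (E, red). The diestrus libraries ranged from 1.80 to 8.35 for the first ratio and from 0.64 to 1.81 for the other, with diestrus replicate 1 inside the estrus range in both.

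Counted together, 4 of the 8 tested genes fell (Vegfb, Vegfc, Pgf and Angpt2), where 14.0% of all tested genes were lower at estrus and 31.1% passed in either direction. None rose in limma (background 17.2%), with Nrp1 the only one higher at an unadjusted p under 0.05. The groups did not overlap, with estrus lower, at 5 of the 8, against 18.7% of all tested genes, and with estrus higher at none, against 21.9%. The median log2 fold change of the 8 was -0.64, beside 0.05 for all tested genes, and 7 of the 8 values were negative, as were 46.8% of all. Without estrus replicate 2 the genes that fell were Vegfb and Vegfc alone.

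Ordered by mean over all 7 libraries, both phases together, the levels ran from Vegfa at 26.6 FPKM through Nrp1 at 24.2, Nrp2 at 18.2, Vegfb at 16.0, Angpt2 at 5.63, Vegfc at 3.98, Pgf at 3.75 and Angpt1 at 1.76 to Angpt4 at 0.73 FPKM. Among neighbours in this order, Vegfb exceeded Angpt2 and Pgf exceeded Angpt1 in 7 of 7 libraries, and the other neighbours changed places in at least 1 library. The order differed between phases: Nrp1 (29.5 FPKM) averaged above Vegfa (24.5 FPKM) at estrus only, and Vegfb (21.8 FPKM) averaged above Nrp2 (21.2 FPKM) and Nrp1 (20.3 FPKM) at diestrus only. Pgf, at 2.26 FPKM, was above Angpt2 (1.85 FPKM) and Vegfc (1.64 FPKM) in the estrus means and below both in the diestrus means. At estrus Vegfb was well below Vegfa (8.37 against 24.5 FPKM), while in diestrus replicates 2 and 4 it exceeded Vegfa (30.4 against 28.4 and 23.8 against 20.2 FPKM).

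The receptor tyrosine kinases for these ligands were mostly lower at estrus as well. Of the 5, 4 fell and none rose at either an adjusted or an unadjusted p under 0.05, with a median log2 fold change of -0.83. Tek, the angiopoietin receptor, stood at 11.3, 19.7, 20.9 and 26.2 FPKM in diestrus and 7.61, 6.81 and 8.30 FPKM in estrus (log2 -1.21, SE 0.26, limma adjusted p = 0.0127). Kdr, the main Vegfa receptor, stood at 18.6, 22.2, 25.6 and 33.1 against 13.9, 12.3 and 15.4 FPKM (log2 -0.77, adjusted p = 0.0229). For both genes each estrus library was below each diestrus library.

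Flt4, the Vegfc receptor of lymphatic endothelium, stood at 10.2, 22.5, 8.62 and 20.4 FPKM in diestrus and 5.89, 5.99 and 6.26 FPKM in estrus (log2 -1.11, limma adjusted p = 0.0367). Tie1, an orphan receptor that pairs with Tek, fell by 0.83 on the log2 scale (limma adjusted p = 0.0435). Flt1, the receptor that Vegfa, Vegfb and Pgf share, stood at 7.66, 10.6, 8.43 and 9.81 against 5.67, 6.33 and 8.36 FPKM, with overlapping groups (log2 -0.39, adjusted p = 0.116). With single libraries left out, all 4 fell without diestrus replicate 1. There were 2 without diestrus replicate 2, 3 or 4 or estrus replicate 3, 1 without estrus replicate 1 and none without estrus replicate 2, where Tek was at 0.0615 and Kdr at 0.1.

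**Figure D3:**
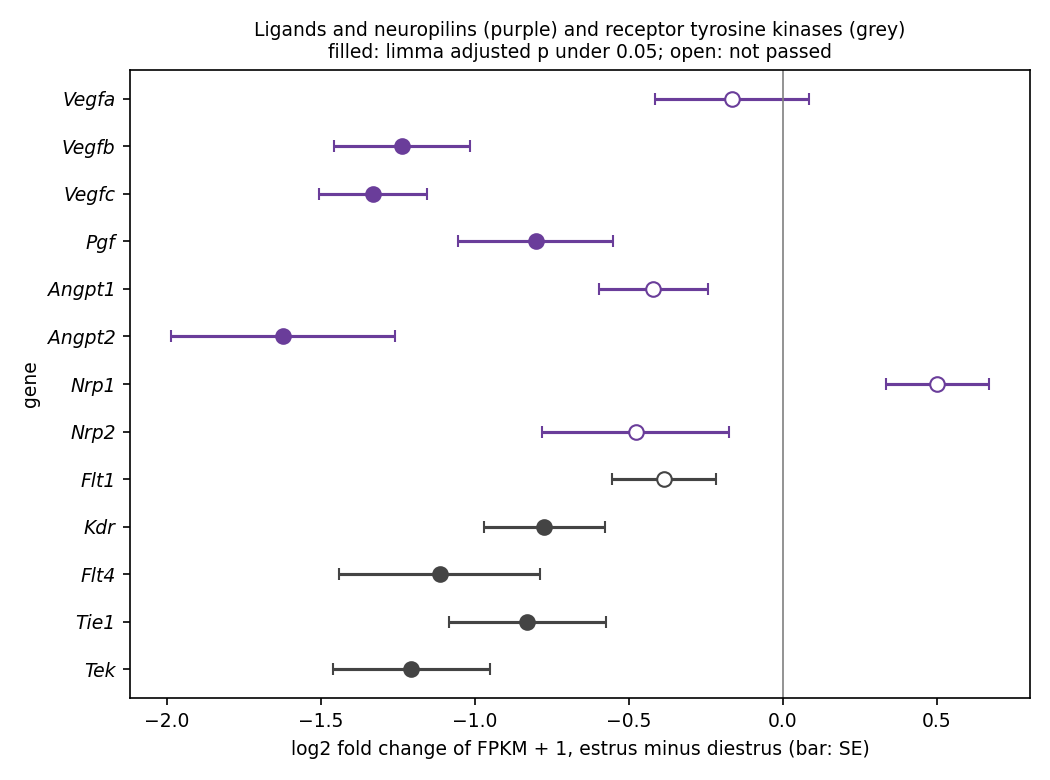
Log2 fold change of FPKM + 1, estrus minus diestrus, with its SE, for the 8 tested ligands and neuropilins (purple) and the 5 receptor tyrosine kinases (grey); filled points passed limma at an adjusted p under 0.05. All points but Nrp1 (0.50) lie to the left of 0, from -0.17 for Vegfa to -1.62 for Angpt2.

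Ligands and receptors were next read against the endothelium of the same library. Of 15 blood endothelium markers, 8 fell and none rose (12 lower and none higher at an unadjusted p under 0.05), 14 log2 fold changes were negative and the median was -0.97. Their summed level was 427.9 to 835.4 FPKM in diestrus and 285.0 to 339.9 FPKM in estrus, and no marker was at 0 in any library. Esam, Cldn5 and Emcn, proteins of endothelial junctions and surface, fell by 1.03, fell by 1.57 and fell by 1.37 on the log2 scale. Icam2 went the other way, with means of 14.7 FPKM in diestrus and 17.6 FPKM in estrus (log2 0.25, limma adjusted p = 0.213). Sox17 was highest in diestrus replicate 1, at 70.3, 52.4, 33.9 and 28.5 FPKM in diestrus and 34.0, 30.0 and 28.5 FPKM in estrus (limma adjusted p = 0.232). Without diestrus replicate 1, 13 markers fell. The count was 3 without estrus replicate 1, and none passed without estrus replicate 2. The mean log2(FPKM + 1) of the 15 markers was 5.06 ± 0.38 in diestrus and 4.17 ± 0.13 in estrus, lowest among diestrus libraries in replicate 1 at 4.55.

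Subtracting that mean from each gene gives a level relative to endothelial RNA, described here without a test. The mean itself differed by -0.885 between estrus and diestrus, so a gene of unchanged level moves up by as much on this scale. The share of all tested genes that separate on this scale was not computed. Pgf overlapped between the phases on this scale, at -2.65, -2.67, -2.36 and -2.55 in diestrus and -2.35, -2.54 and -2.53 in estrus. Angpt2 remained lower at estrus, at -2.19, -2.34, -1.60 and -1.63 against -2.61, -2.84 and -2.58. Nrp1 was higher at estrus in every library, at 0.06, -0.61, -0.85 and -1.20 against 0.41, 1.03 and 0.77. Before the subtraction its log2 fold change was 0.50 and its groups overlapped. Vegfa had a mean difference of 0.72 with overlapping groups. Vegfb also overlapped, with a mean difference of -0.35. The added 1 FPKM compresses low genes more than the abundant markers, so the levels were also taken as plain log2 FPKM, an alternative chosen after seeing the data. Without the pseudocount Vegfc was lower in every estrus library, at -2.23, -2.39, -2.87 and -2.54 in diestrus and -3.25, -3.17 and -3.65 in estrus, whereas with it the groups overlapped (mean difference -0.45). Angpt2 remained lower and Nrp1 higher at estrus in every library, by -1.14 and 1.45 on average, and Vegfb and Vegfa still overlapped. The mean difference of Pgf was 0.08 with the pseudocount and -0.11 without it, overlapping in both. For Angpt4, near 1 FPKM or below, the groups separated with the pseudocount and overlapped without it, so no direction is read for it. Whether endothelial content accounts for any of these values was not tested.

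**Figure D4:**
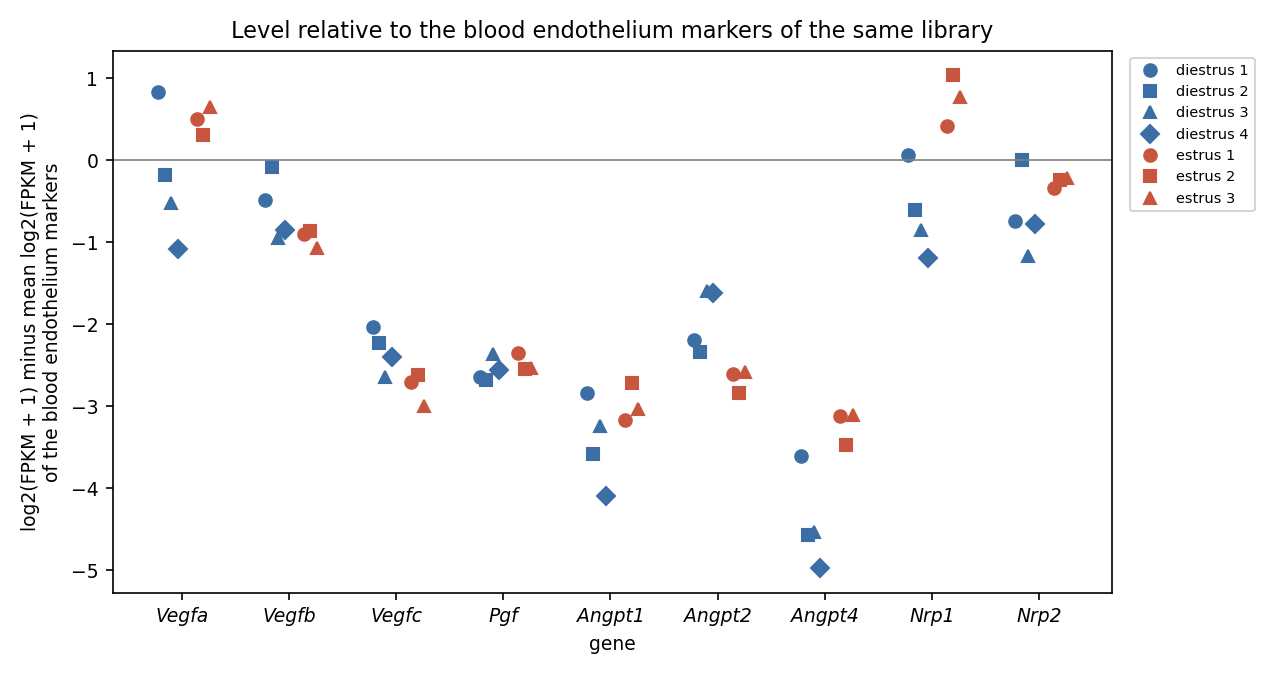
Level of each of the 9 genes, log2(FPKM + 1), minus the mean log2(FPKM + 1) of 15 blood endothelium markers in the same library, for diestrus (blue) and estrus (red) with 1 symbol per replicate. Angpt2 sits lower and Nrp1 higher in all estrus libraries, with or without the added 1 FPKM. The marker mean was itself lower at estrus (difference -0.885), which moves every gene up on this axis. The points for low genes depend on that addition: without it the Vegfc groups no longer overlap and the Angpt4 groups do.

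Markers of other cell types were read in the same way, beside 14.0% of all tested genes lower and 17.2% higher at estrus. Of 9 pericyte and mural cell markers, 4 fell and none rose (5 and none at an unadjusted p under 0.05). Among them Rgs5 fell from 81.6 to 35.7 FPKM (limma adjusted p = 0.00421), and Kcnj8 and Ndufa4l2 fell by 1.27 and fell by 0.77 on the log2 scale. Their summed level overlapped, at 406.6 to 968.0 FPKM in diestrus and 657.9 to 788.5 FPKM in estrus, and Anpep, an aminopeptidase, held between 196.8 and 827.0 FPKM of it. Anpep went the other way from the markers that fell, with means of 412.2 FPKM in diestrus and 633.7 FPKM in estrus (log2 0.85, limma adjusted p = 0.195). Without Anpep, left out after seeing the data, the other 8 markers summed to 141.1 to 209.8 FPKM in diestrus. In estrus they summed to 80.4 to 111.4 FPKM, with no overlap. Over the libraries left out, 3 to 4 of the 9 pericyte markers fell, and 1 rose only without diestrus replicate 1. With library weights 5 fell and 1 rose. Of 5 lymphatic markers tested, 3 fell (Pdpn, Reln and Mmrn1, with log2 fold changes of -0.94, -1.46 and -1.08), and none passed without estrus replicate 2, against 1 to 4 without any other library. The lymphatic sum was 56.4 to 127.1 FPKM in diestrus and 41.2 to 46.3 FPKM in estrus.

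Epithelium markers went the other way, with 8 of 10 higher and none lower, also without any 1 library. Their sum was 877.4 to 1217 FPKM in diestrus and 3398 to 3790 FPKM in estrus. Krt7, Elf3 and Cldn7 rose by 2.52, 3.13 and 2.07 on the log2 scale. Of 10 stroma markers 4 fell and 1 rose. Those with the smallest p-values, Thy1, Hoxa10 and Hoxa11, fell by 1.44, fell by 2.06 and fell by 1.98. The marker that rose was Col6a1, from 526.3 to 1023 FPKM (log2 0.97, limma adjusted p = 0.0223). The stroma sums overlapped (3359 to 5870 and 4041 to 5382 FPKM). With single libraries left out, 3 to 4 fell and 0 to 1 rose. Of 7 macrophage markers 4 fell, including Csf1r, Lyz2 and Emr1 (log2 -1.21, -1.45 and -1.27), with 5 lower without diestrus replicate 1, 1 or 2 without each of the others and none without estrus replicate 2. The macrophage sum was 292.0 to 734.3 FPKM in diestrus and 181.1 to 273.0 FPKM in estrus. Of 8 smooth muscle markers, 1 rose (Actg2, log2 1.13) and 1 fell (Smtn, log2 -0.93), and the sums overlapped, at 2644 to 6940 FPKM in diestrus and 2965 to 5287 FPKM in estrus. With single libraries left out, 0 to 1 of the 8 rose and 0 to 2 fell. The share of smooth muscle markers that passed was below the 31.1% of all tested genes. The part of these cell types in the results above was not tested.

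Transcripts of the proteins that mature Vegfc were divided. Vegfc is made as a precursor, which proprotein convertases such as Furin and Pcsk7 cut, and which the protease Adamts3 activates with the help of Ccbe1. Of 6 such genes tested, 3 rose and 1 fell. Furin rose from 37.8 ± 2.46 to 74.8 ± 6.39 FPKM (log2 0.96, SE 0.11, limma adjusted p = 0.00198), and Pcsk7 rose from 11.7 to 19.3 FPKM (log2 0.68, adjusted p = 0.00888). Pcsk5, another listed convertase, averaged 20.2 FPKM in diestrus and 6.34 FPKM in estrus without overlap, but did not pass (log2 -1.29, limma adjusted p = 0.0742). Ccbe1 stood at 1.91, 4.45, 5.61 and 5.71 FPKM in diestrus and at 0.97, 1.00 and 1.07 FPKM in estrus, so that the groups did not overlap (log2 -1.36, adjusted p = 0.0136). It met the expression filter through the diestrus libraries, since only estrus replicate 3 reached 1 FPKM (estrus replicate 2 was at 0.996 FPKM). Without estrus replicate 2, Pcsk7 and Ccbe1 were at adjusted p-values of 0.0515 and 0.0589 and Furin remained at 0.018. Only 2 of the 6 rose without any 1 of the other libraries.

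Class 3 semaphorins are the other ligands of neuropilins, and plexins are their signalling partners. Of 12 semaphorin and plexin genes, 3 rose and 1 fell, a share close to the 31.1% of all tested genes that passed in either direction, with a median log2 fold change of -0.00. Sema3a, the repulsive ligand that binds Nrp1, stood at 11.2, 7.87, 7.04 and 7.34 FPKM in diestrus and 14.5, 30.7 and 30.6 FPKM in estrus (log2 1.43, SE 0.28, limma adjusted p = 0.00993). Like Nrp1, it was highest in estrus replicates 2 and 3. Sema3f, which prefers Nrp2, rose from 17.2 to 38.2 FPKM (log2 1.13, adjusted p = 0.0104), and Sema3g fell from 16.7 to 8.68 FPKM (log2 -0.84, adjusted p = 0.0222). Without estrus replicate 2 none of the 12 passed, with Sema3a and Sema3f at adjusted p-values of 0.0515 and 0.0551 and Sema3g at 0.0949. Sema3g was also above the threshold when diestrus replicate 2 (0.0501) or 4 (0.0582) or estrus replicate 1 (0.0644) was left out.

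Of the related ligands outside the 9 genes, 1 of 5 tested fell and none rose (3 lower and none higher at an unadjusted p under 0.05). Figf, the current Vegfd and a ligand of Flt4, stood at 9.71, 22.1, 34.7 and 44.6 FPKM in diestrus and at 7.95, 9.43 and 12.2 FPKM in estrus. Diestrus replicate 1 was inside the estrus range (log2 -1.23, SE 0.46, limma adjusted p = 0.0751), and without it the log2 value was -1.64 (limma adjusted p = 0.00609). Angptl2 fell by 1.36 on the log2 scale with an adjusted p of 0.0480. It passed only without diestrus replicate 1 or 3, and the adjusted p ranged from 0.0351 to 0.149 over all libraries left out. Angptl7 was at 10.2, 24.5, 124.5 and 153.0 FPKM in diestrus and 6.59, 5.82 and 12.3 FPKM in estrus, with an adjusted p of 0.0706.

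Vegfa is a textbook target of hypoxia-inducible factors, and the study design names Hif2a, the product of Epas1, beside the estrogen receptor Esr1 and the progesterone receptor Pgr. Epas1 stood at 30.9, 46.0, 40.6 and 48.7 FPKM in diestrus and 34.5, 60.2 and 61.3 FPKM in estrus (limma adjusted p = 0.378), and Esr1 and Pgr did not pass either (0.188 and 0.187). Of 18 other HIF target genes, 7 rose and 2 fell, with a median log2 fold change of 0.30. Among all tested genes 17.2% were higher and 14.0% lower. Bhlhe40, a circadian repressor, rose from 28.6 to 133.3 FPKM (log2 2.24, adjusted p = 0.00185). Car9, a carbonic anhydrase, rose by 2.05, and Pgk1, a glycolytic enzyme, rose by 1.42. The 2 that fell were Adm and P4ha2 (log2 -0.75 and -0.66, limma adjusted p = 0.0372 and 0.0282). With 1 library removed at a time, 4 to 8 of the 18 rose and 0 to 2 fell. The lowest counts, 4 and 0, came without estrus replicate 2. Among 9 HIF factors and regulators, Egln3 and Egln1, prolyl hydroxylases that mark HIF proteins for destruction, rose by 2.72 and 0.76, and Arnt2, a dimer partner, fell by 1.42. The share of the 9 that passed was close to the 31.1% of all tested genes that passed in either direction. Egln1 passed only without diestrus replicate 1 when libraries were left out, with adjusted p-values of 0.0504 to 0.125 without the others.

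The genes most like each falling gene were taken by Pearson correlation of log2(FPKM + 1) over the 7 libraries among the 10580 genes that were tested and averaged 5 FPKM or more. These values describe the profile only, since the libraries share the difference between phases. For Vegfc they were Podxl, S1pr3 and Dtx1 (r = 0.998, 0.996 and 0.992). For Pgf they were Tie1, Grrp1 and Mpp1 (0.994, 0.993 and 0.993). Vegfb was matched by Rab4a, Ddah2 and St3gal3 (0.999, 0.997 and 0.995) and Angpt2 by Per1, Ctsf and Rxrb (0.997, 0.997 and 0.996). Among the 8 tested genes the closest pairs were Pgf with Angpt2 (r = 0.982) and Vegfb with Vegfc (0.959), whereas Vegfa correlated at between -0.235 and 0.296 with each of the others.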

How the data were processed

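RNA had been purified on Qiagen RNeasy columns with DNase treatment and libraries made with the Illumina TruSeq RNA kit, per the labels' protocols. The authors deposited 1 table of FPKM with 1 column per library. The submitters' processing notes list TopHat2 2.0.4 and mm10. What program and annotation produced the FPKM is not given in the sources used here. Each column was matched by the sample descriptions and groups taken from the titles.

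The 13920 genes that reached 1 FPKM in 3 or more libraries were fitted on the log2(FPKM + 1) scale by limma 3.58.1 (R 4.3.3), with 2 groups, an intensity trend, two-sided p-values and a Benjamini-Hochberg threshold of 0.05. The fit was tested on simulated data. Ratios and Angpt4 were tested by exact permutation. The 9 genes and 16 gene lists were chosen with earlier results of these data known. Besides the 9 genes and the 5 receptors, the rule named up to 3 genes per list with the smallest p-values, the 3 genes most like each falling gene, and Esr1, Pgr and Epas1. Adamts3 lies outside that rule and is named as background only. Anpep, Col6a1, Adm, P4ha2, Pcsk5, Esm1 and Icam2 also lie outside it and are named because they went against genes named from their lists. Sox17 lies outside it too and is named for its order among the diestrus libraries. Older symbols (Figf, Emr1) were used where the table had them. Gene coordinates are GENCODE's for GRCm38, the assembly called mm10, and promoters RefSeq's. The alternatives were other pseudocounts, filters, scalings, moderation, weights per library, a fit with a replicate block, and each library left out in turn. Levels relative to endothelium without a pseudocount and the pericyte sum without Anpep were added after seeing the data. Python 3.11.15 and matplotlib 3.10.9 made the figures.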

Additional observations from a re-analysis of the deposited data

How the results depend on the processing

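Vegfb and Vegfc stayed lower and past the threshold in every alternative that tested them (17 and 16), with adjusted p-values of at most 0.0378 and 0.0199. Angpt2 did so in all 17 but that without estrus replicate 2. Pgf stayed lower but missed the threshold in 10 of 16, among them pseudocount 5 (0.0529), no filter (0.0817) and quantile normalization (0.0829). The number of the 9 genes that fell was 4 with all libraries, 2 when a mean of at least 5 FPKM was required, since Vegfc, Pgf and Angpt1 were then not tested, and 2 to 4 when libraries were left out. The number that rose was 0, 1 (Nrp1) with library weights, and 0 to 1 when libraries were left out. With library weights Nrp2 also fell (adjusted p = 0.0445), but these weights ran from 0.358 for diestrus replicate 1 to 5.85 for estrus replicate 2. The log2 fold change of Vegfa ranged from -0.32 to 0.02 over the libraries left out, above 0 (0.021) only without diestrus replicate 1.

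Over all tested genes, 2393 were higher and 1943 lower at estrus. These counts were 4318 and 3795 with library weights and 1684 and 1914 with quantile normalization, 1181 were lower when a mean of 5 FPKM was required, and leaving out libraries gave 854 to 2866 higher and 579 to 2445 lower. The cause was not tested.

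A replicate block, in which diestrus replicate 4 has no partner and adds nothing to the contrast, gave 1299 higher and 982 lower, and 3 of the 9 genes lower (Vegfb, Vegfc and Angpt2) with 0 higher; Pgf was at 0.104. The labels do not say whether the numbers pair libraries. Deviations of same-numbered libraries correlated at 0.198, 0.0243 and 0.169, within a range of -0.326 to 0.267 over all pairs. Diestrus replicate 1 correlated best with estrus replicate 2. With so few libraries these values cannot decide whether there was a pairing. Paired differences of the log2 ratios over replicates 1 to 3 were -0.88 for Angpt2 to Angpt1 and 0.83 for Nrp1 to Nrp2, and both ratios kept their sign and missed the threshold in every alternative, although no exact p under 0.05 was possible with a library left out. With no counts, precision at low FPKM, as for Angpt4, is unknown.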

Other observations

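Other groups of vascular genes were measured. Of 8 genes listed as secreted angiogenesis inhibitors, 3 fell at estrus and none rose in limma, with the same counts at an unadjusted p under 0.05. Among all tested genes 14.0% were lower, 17.2% were higher and 31.1% passed in either direction. Col18a1, the collagen from which endostatin is cut, stood at 129.3, 95.2, 146.4 and 121.2 FPKM in diestrus and 60.5, 58.3 and 75.4 FPKM in estrus (log2 -0.91, SE 0.17, limma adjusted p = 0.00901). Timp3, a matrix-bound inhibitor that blocks Vegfa from Kdr, fell from 92.2 to 40.9 FPKM. Vash2, on the list although a role as inhibitor is not established for it, fell from 3.29 to 1.28 FPKM. The 3 falls held without diestrus replicate 1, 2 or 3, but 1 remained without diestrus replicate 4 or estrus replicate 1 or 3 and none without estrus replicate 2, where Col18a1 was at an adjusted p of 0.0525.

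Of 9 tested genes that respond to VEGF in endothelium, 3 fell and none rose (4 lower and 1 higher at an unadjusted p under 0.05). The share that passed was close to the 31.1% of all tested genes that passed in either direction, of which 14.0% were lower. Nos3, the endothelial nitric oxide synthase, stood at 5.07, 6.53, 6.69 and 7.93 FPKM in diestrus and 2.71, 3.06 and 3.04 FPKM in estrus (log2 -0.93, SE 0.16, limma adjusted p = 0.00571), and its adjusted p stayed at or under 0.0322 with any 1 library left out. Hlx and Egr3, transcription factors, fell by 0.80 and fell by 0.60 on the log2 scale (limma adjusted p = 0.0343 and 0.0358). Hlx missed the threshold without diestrus replicate 3 or 4 or any estrus replicate (0.0639 to 0.137), and Egr3 without any estrus replicate (0.0509 to 0.123). Egr3 did not pass the expression filter without diestrus replicate 1, 2 or 4, the only libraries in which it reached 1 FPKM (1.06, 1.03 and 1.25 FPKM). Its estrus values were 0.16, 0.29 and 0.45 FPKM. Its entry into the fit thus depended on the group in which it was high, and its fall is no separate evidence. Esm1 went the other way, with means of 1.47 FPKM in diestrus and 3.08 FPKM in estrus (log2 0.77, limma adjusted p = 0.0867). Without diestrus replicate 1, 1 of 8 tested genes rose and 2 fell. The median of the 9 was -0.21, and 6 of the 9 values were negative. Platelet and red cell markers, which report blood left in the tissue, gave 0 of 4 past the threshold, with Pf4 at 0.0902 and an unadjusted p under 0.05 for 1 of the 4.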
